A study of Mus musculus with 2 samples.

Results

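The 10 genes described here are those of the core Notch pathway: the receptors *Notch1*, *Notch2*, *Notch3* and *Notch4*, the ligands *Dll1*, *Dll4*, *Jag1* and *Jag2*, and the target genes *Hes1* and *Hey1*. They were taken by name from the 32285 genes of the count matrices, and all 10 were found there. Their unique molecular identifiers (UMIs, each marking 1 captured RNA molecule) were summed over every cell class of Lewis lung carcinoma (LLC) tumors, a transplanted mouse lung cancer line grown under the skin. Tumors came from C57BL/6 mice with the genotype Gucy1b1 flox/flox (sGC Ctr) or Cspg4-CreERT2::Gucyc1b1 flox/flox as the label spells it (sGC ΔPC). In the second genotype tamoxifen lets the Cre recombinase, which is driven by the pericyte gene *Cspg4*, delete a part of *Gucy1b1*, the beta subunit of the nitric oxide receptor soluble guanylate cyclase. Mice of both genotypes carry the floxed alleles and both were given tamoxifen 5 times when 4 weeks old, were inoculated at 8 weeks and had their tumors dissected 2 weeks later. In these libraries *Cspg4* was not limited to pericyte-like cells (164 and 79.9 CPM, UMIs per 1000000 UMIs of the class): macrophage-like cells had 63.5 and 40.2 CPM.

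Notch signaling runs between touching cells. A Delta-like or Jagged ligand on one cell pulls on a Notch receptor of its neighbor, proteases release the intracellular domain of the receptor, and this domain joins the DNA-binding protein RBPJ to switch on repressor genes of the Hes and Hey families. In growing vessels Dll4 on endothelial tip cells holds back sprouting of the cells behind them, Notch1 and Notch4 are endothelial receptors, Notch3 is the receptor of mural cells (pericytes and smooth muscle), and Jag1 is a ligand that mural and endothelial cells exchange.

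Each genotype is 1 library made from cells of 3 pooled tumors, so genotype and library cannot be told apart and no test between genotypes was run. All intervals are exact 95% intervals and cover counting error only. After filtering, 12220 cells of the sGC Ctr library and 22498 of the sGC ΔPC library remained, with medians of 35776.5 and 8685 UMIs, and 98 of their barcodes occur in both libraries. Clusters gave 10 marker-named classes, which hold 9431 and 15703 cells. The sGC ΔPC library stands apart in ways that touch the results. It is shallower. RNA of cancer cells made up a larger part of its stromal cells: the level of 5 cancer-cell markers, as a percentage of that in cancer-like cells, was 6.42% and 19.6% in endothelial-like cells, 5.02% and 10.5% in pericyte-like cells and 50.3% and 70.3% in fibroblast-like cells. In addition, 3 transcripts that share sequence with ribosomal or mitochondrial ribosomal RNA (*Gm42418*, *AY036118* and *Lars2*) were higher in each of the 10 classes, from 3327 and 10792 CPM in cancer-like cells up to 36243 and 72538 CPM in granulocyte-like cells. The targeted gene *Gucy1b1* had 59 UMIs in pericyte-like cells of the sGC Ctr library and 15 in the sGC ΔPC library, 124 and 41.3 CPM (log2 ratio -1.58, interval -2.51 to -0.75). Counts at the 3' end do not show whether the deleted part is gone.

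The cell classes differed in which members they carried. Endothelial-like cells (69 sGC Ctr, 110 sGC ΔPC) held *Notch1*, *Notch4*, *Dll4*, *Jag2*, *Hey1* and *Hes1* together. Their 10 markers summed to 8257 and 5982 CPM, against 642 and 909 CPM in the next class, pericyte-like cells. The endothelial-like sub-clusters described below carried from 7 to 10 of these markers. Pericyte-like cells (40 and 45) held *Notch3*, *Jag1*, *Notch1* and *Hes1* and hardly a UMI of the Delta-like ligands. Their 8 markers summed to 9646 and 8750 CPM, against 479 and 250 CPM in the next class, fibroblast-like cells. Macrophage-like and monocyte-like cells carried *Notch2*, *Notch1*, *Hes1* and *Jag1*, granulocyte-like cells the first 3 of these and dendritic-like cells mainly *Notch2* and *Jag2*, and cancer-like cells carried mainly *Notch2* and *Hes1*.

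**Figure D1:**
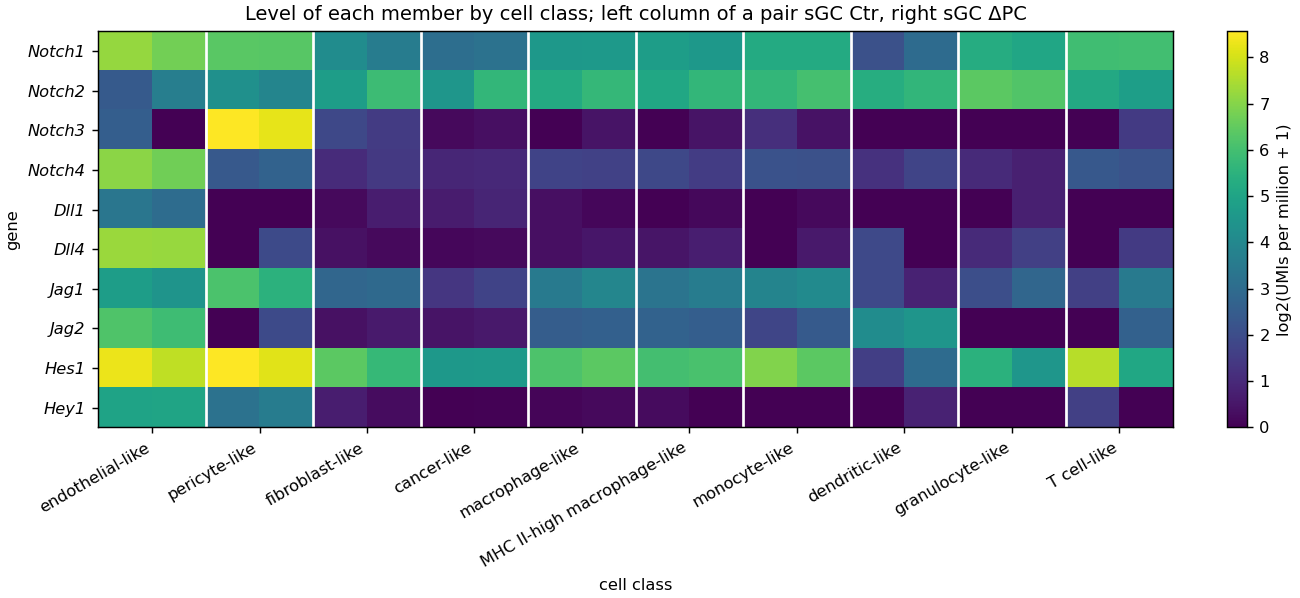
Level of each member (rows) in the 10 named classes, as log2(CPM + 1), with sGC Ctr as the left and sGC ΔPC as the right column of each pair. *Notch3* is bright in pericyte-like cells (375 and 300 CPM), and *Notch4*, *Dll4* and *Jag2* are brightest in endothelial-like cells.

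Among the receptors, *Notch3* was the most narrowly placed. Pericyte-like cells had 179 and 109 *Notch3* UMIs, or 375 CPM (322 to 435) and 300 CPM (247 to 362). The next class stood at 4.92 CPM in the sGC Ctr library (endothelial-like, 9 UMIs in 3 cells) and at 1.81 CPM in the sGC ΔPC library (fibroblast-like), with intervals far below. Pericyte-like cells gave 68.6% of the *Notch3* UMIs of named cells in the sGC Ctr library and 49.8% in the sGC ΔPC library, although they are 40 and 45 cells. At least 1 *Notch3* UMI was seen in 85.0% and 55.6% of them, and in 39.5% and 50.0% once each cell was thinned to 2000 UMIs (38 and 30 cells deep enough). Macrophage-like cells, which should lack the gene, had 0 UMIs in the sGC Ctr library, which allows up to 0.162 CPM. In the sGC ΔPC library 0.270% of them had a UMI.

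*Notch4*, an endothelial receptor, reached 134 CPM (118 to 152) and 103 CPM (87.6 to 120) in endothelial-like cells, on 246 and 159 UMIs. No other class passed 5.51 CPM, and the intervals of the following classes overlap each other. *Notch1* was highest in the same cells at 146 CPM (129 to 165) and 106 CPM (90.5 to 124). It was not restricted to them: pericyte-like cells stood at 81.8 and 79.9 CPM, T-cell-like cells at 59.8 and 62.0 CPM, monocyte-like cells at 36.8 and 36.9 CPM and granulocyte-like cells at 38.6 and 32.8 CPM. In the sGC ΔPC library the intervals of endothelial-like and pericyte-like cells overlapped. *Notch1* was lowest in dendritic-like cells, with 5 and 9 UMIs (3.39 and 7.06 CPM).

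*Notch2* ran the other way. It was lowest in endothelial-like cells, with 8 and 18 UMIs (4.37 and 11.7 CPM), and highest in granulocyte-like cells (83.5 and 74.4 CPM, 80 and 109 UMIs), followed by monocyte-like cells (50.2 and 65.2 CPM), whose interval overlapped that of granulocyte-like cells in the sGC ΔPC library. Macrophage-like cells stood at 37.1 and 51.3 CPM, dendritic-like cells at 39.3 and 48.6 CPM and cancer-like cells at 21.4 and 49.7 CPM. Because cancer-like cells are many and deep, they gave 80.7% and 82.9% of all *Notch2* UMIs in named cells.

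**Figure D2:**
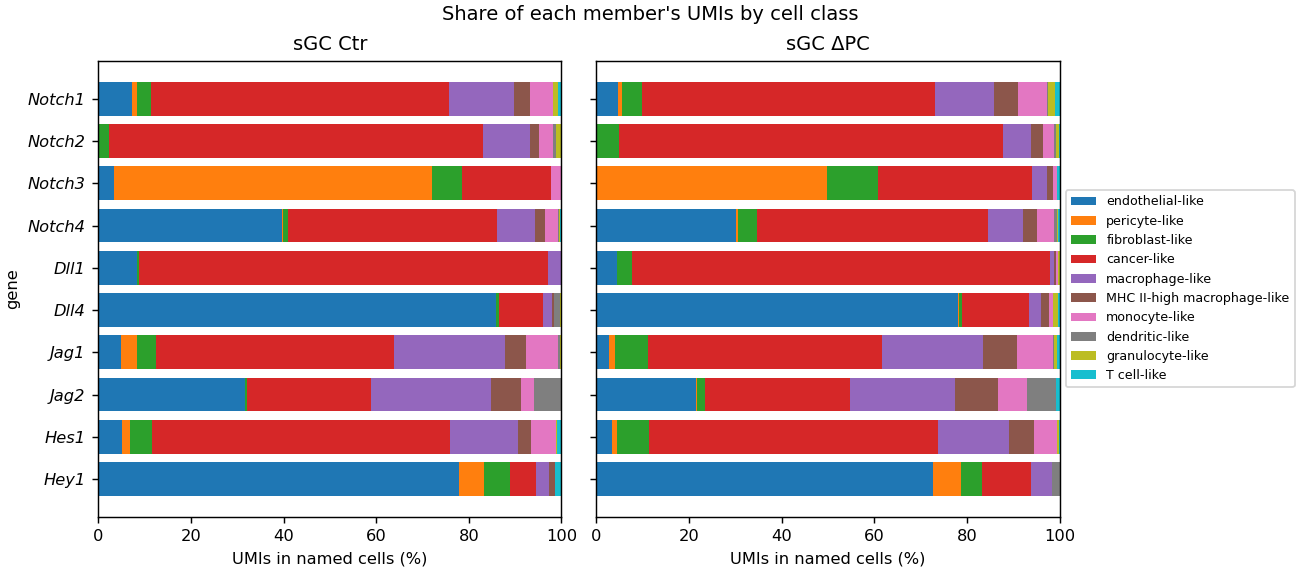
Share of the UMIs of each member (bars, in percent of its UMIs in named cells) that came from each class, for sGC Ctr (left) and sGC ΔPC (right). *Dll4* and *Hey1* UMIs come mostly from endothelial-like cells and *Notch3* UMIs from pericyte-like cells, while cancer-like cells give most UMIs of *Notch1*, *Notch2*, *Dll1*, *Jag1* and *Hes1* through their number and depth.

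Among the ligands, *Dll4* was the endothelial one. Its 282 and 234 UMIs in endothelial-like cells, 154 CPM (137 to 173) and 151 CPM (133 to 172), were 86.0% and 78.0% of the *Dll4* UMIs of named cells. Pericyte-like cells had 0 and 1 UMI, and 0 UMIs there allow up to 7.74 CPM. *Dll4* was seen in 71.0% and 48.2% of endothelial-like cells, or 23.1% and 19.5% after thinning (65 and 87 cells), against 0.334% and 0.308% of macrophage-like cells at medians of 11818 and 3084 UMIs.

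*Jag2*, a further endothelial ligand, stood at 72.7 CPM (60.8 to 86.1) and 58.9 CPM (47.4 to 72.3) in endothelial-like cells. Dendritic-like cells came next with 16.9 and 21.2 CPM, on 25 and 27 UMIs, above the macrophage-like level of 4.78 and 5.23 CPM without overlap of the intervals. *Jag2* was the only ligand in the dendritic-like cells with more than 4 UMIs in either library.

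*Jag1* was the ligand of pericyte-like cells. Its levels there were 69.2 CPM (47.6 to 97.2, 33 UMIs) and 44.1 CPM (25.2 to 71.6, 16 UMIs). Endothelial-like cells had 26.2 and 20.7 CPM, monocyte-like cells 13.6 and 16.0 CPM and macrophage-like cells 10.2 and 14.3 CPM. In the sGC Ctr library the pericyte-like interval lay above the endothelial-like one, and in the sGC ΔPC library the 2 overlapped. *Dll1* was scarce everywhere: 9.29 and 7.12 CPM in endothelial-like cells on 17 and 11 UMIs, and under 1 CPM in the other classes. Pericyte-like cells had no UMI of it, which allows up to 7.74 and 10.2 CPM. Cancer-like cells, at 0.571 and 0.852 CPM, still gave 88.2% and 90.3% of its UMIs.

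The targets differed in breadth. *Hey1* kept to the vessel wall, with 56 and 48 UMIs in endothelial-like cells (30.6 and 31.1 CPM), 4 and 4 UMIs in pericyte-like cells and at most 7 UMIs in any other class. *Hes1* was found in all 10 classes. Its highest levels were in pericyte-like cells, 378 CPM (324 to 437) and 289 CPM (237 to 350), and endothelial-like cells, 314 CPM (288 to 340) and 214 CPM (192 to 239), with overlapping intervals between the 2 classes in each library. Monocyte-like cells had 122 and 84.6 CPM, macrophage-like cells 71.4 and 83.7 CPM, cancer-like cells 22.8 and 23.9 CPM and dendritic-like cells only 2.03 and 7.06 CPM.

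Receptors and ligands often shared a cell. In the sGC Ctr library 45 of 69 endothelial-like cells held both *Notch1* and *Dll4*, and in the shallower sGC ΔPC library 35 of 110 did. *Dll4* and *Jag2* occurred together in 37 and 32 of these cells, and all 17 sGC ΔPC endothelial-like cells with *Hey1* also held *Dll4*, as did 23 of 28 in the sGC Ctr library. Of the pericyte-like cells, 15 and 10 held *Notch3* with its ligand gene *Jag1*, and 28 and 18 held *Notch3* with *Hes1*. Deep cells show more genes of every kind, so these counts say only that the messages occur in the same droplets.

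Between the genotypes, endothelial-like cells of the sGC ΔPC library had lower levels of *Hes1*, *Notch1* and *Notch4*, with intervals below 0, while the ratios of *Dll4* and *Hey1* lay near 0. The log2 ratio (sGC ΔPC over sGC Ctr) was -0.55 (-0.75 to -0.35) for *Hes1*, -0.46 (-0.75 to -0.18) for *Notch1* and -0.38 (-0.68 to -0.09) for *Notch4*. It was -0.02 (-0.28 to 0.23) for *Dll4* and 0.02 (-0.56 to 0.60) for *Hey1*, and *Jag1* and *Jag2* lay at -0.34 and -0.30 with intervals across 0. The median of the 7 members with at least 50 UMIs was -0.34, and that of the 6851 genes measured was -0.05. This median was -0.92 with a mitochondrial limit of 20% and -0.77 without MNN correction (a step that aligns the libraries before clustering), and 0.03 in the sub-clusters of closest depth, a choice made after seeing the data. No member was lower by 1.5-fold or more, where 6.07% of all genes measured were, and none was higher by that much, where 4.76% were.

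The endothelial-like cells of the libraries lie in different sub-clusters. A pair of sub-clusters with little cancer-cell RNA held 34 and 23 of the sGC Ctr cells and 20 and 19 of the sGC ΔPC cells. The remaining 3 held 6, 3 and 3 sGC Ctr cells and 31, 23 and 17 sGC ΔPC cells, with cancer-cell RNA shares of 39.8%, 39.9% and 23.4%. In the one with 23 sGC ΔPC cells, *Hes1* was 51.6 CPM, *Notch1* 36.9 CPM and *Notch4* 39.3 CPM in that library. Unnamed sub-clusters are left out of these values, among them one led by endothelial genes such as *Cdh5* and *Cldn5*. It held 10 sGC Ctr and 48 sGC ΔPC cells, with a cancer-cell RNA share of 85.7%. The part of this selection in the ratios was not tested.

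The summed level of the 10 endothelial markers moved with these ratios. It was 8257 and 5982 CPM, a log2 ratio of -0.46, while the 8 macrophage markers stood at 661 and 1159 CPM and the 5 cancer-cell markers at 121 and 342 CPM in the same cells. In the 65 and 60 endothelial-like cells holding less than 25% cancer-cell RNA, the endothelial markers were at -0.20 and *Hes1* at -0.32 (-0.53 to -0.12). *Notch1* and *Notch4* were then at -0.17 (-0.47 to 0.13) and -0.09 (-0.39 to 0.21), *Dll4* at 0.17 (-0.10 to 0.43) and *Hey1* at 0.41 (-0.18 to 1.00). *Hes1* was the member whose interval stayed below 0 in these cells. When cells were instead gated 1 by 1 on the markers, *Hes1* was at -0.20 (-0.41 to 0.01). The part of RNA from other cells in the difference was not tested.

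**Figure D3:**
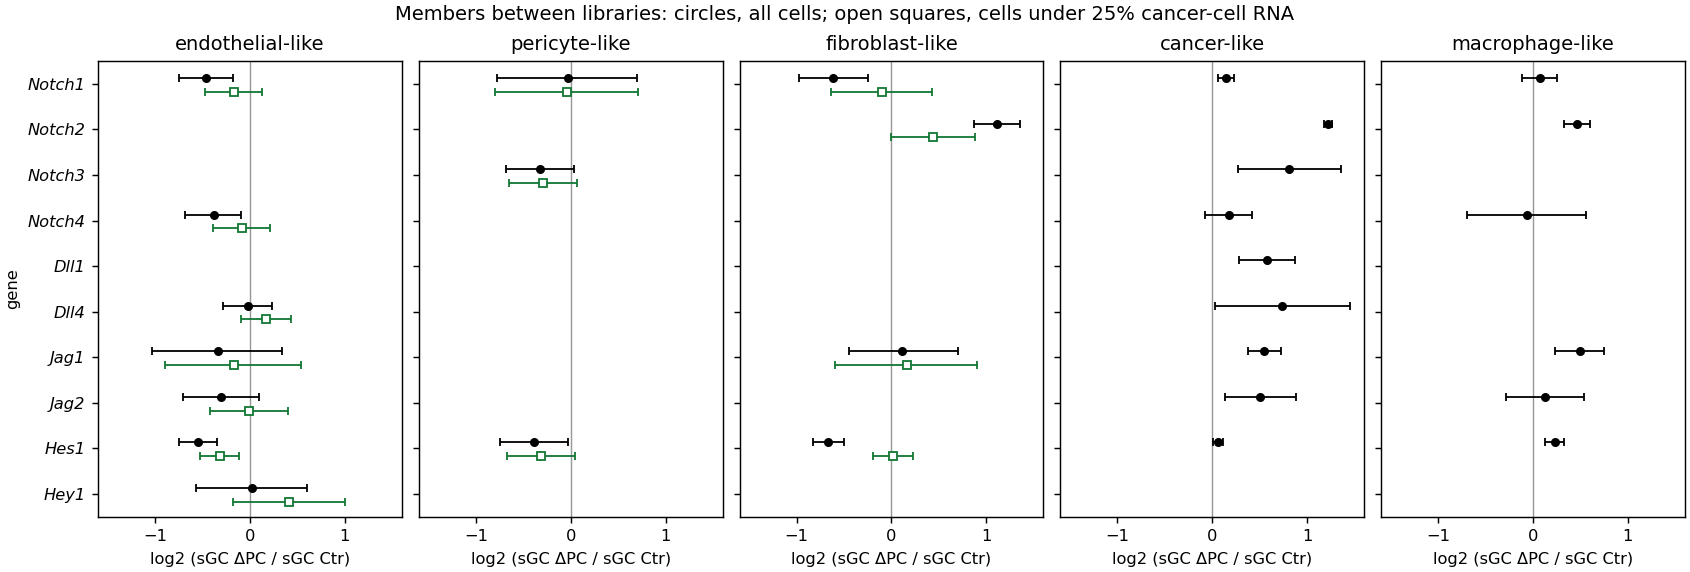
Log2 ratio of each member between sGC ΔPC and sGC Ctr in 5 classes, for members that reach 50 UMIs when the libraries are added. Circles are all cells, open squares the cells holding less than 25% cancer-cell RNA, and bars exact 95% intervals: in endothelial-like cells the squares lie to the right of the circles, and *Hes1* in fibroblast-like cells goes from -0.67 to 0.02.

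Endothelial-like cells fell into sub-clusters that differ in their Notch genes. The pathway genes had been kept out of the clustering. One, called the tip-gene group here (34 and 20 cells, medians of 28103.5 and 27104.5 UMIs) carried all 6 tip-cell markers and 3 of 6 cell-cycle markers, and another, called the arterial and venous group (23 and 19 cells, 16866 and 19198 UMIs) carried 5 of 6 tip-cell, 3 of 6 arterial and 3 of 5 venous markers. Both had a small cancer-cell RNA share (4.94% and 6.91%). *Hey1* and *Jag2* were higher in the arterial and venous group than in the tip-gene group: *Hey1* at 51.5 and 101 CPM against 23.1 and 18.2 CPM, and *Jag2* at 115 and 124 CPM against 50.0 and 56.1 CPM. *Dll4* stood at 148 and 213 CPM in the former and at 166 and 176 CPM in the latter.

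The ratio of *Hes1* between the genotypes had opposite signs in these sub-clusters. In the tip-gene group, *Hes1* was 372 CPM in the sGC Ctr library and 264 CPM in the sGC ΔPC library (-0.50, -0.76 to -0.24). In the arterial and venous group it was 270 and 331 CPM (0.30, -0.06 to 0.65), so the 2 intervals do not overlap. *Hey1* stood at -0.34 (-1.48 to 0.71) in the former and 0.97 (0.22 to 1.72) in the latter, and *Dll4* at 0.08 (-0.27 to 0.43) and 0.53 (0.06 to 0.99). The state markers of these groups also differed between the libraries. Summed tip-cell markers were 1879 and 2980 CPM in the tip-gene group and 770 and 1192 CPM in the other, where venous markers were 907 and 570 CPM and arterial markers 806 and 792 CPM. Their part in the *Hes1*, *Hey1* and *Dll4* ratios was not tested. Each value rests on 19 to 34 cells, and the difference between the sub-clusters was not tested.

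**Figure D4:**
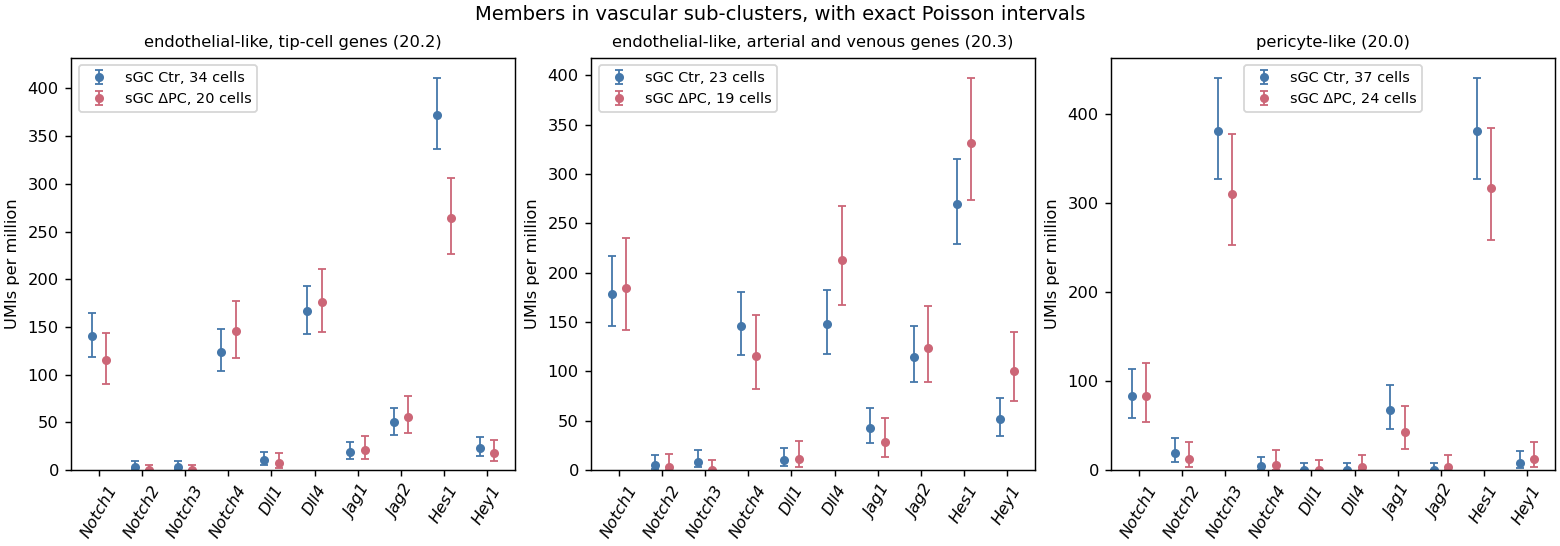
Level of each member in 3 vascular sub-clusters, in CPM with exact 95% Poisson intervals, for sGC Ctr (blue) and sGC ΔPC (red). *Hes1* is lower in sGC ΔPC cells of the tip-gene sub-cluster (264 against 372 CPM) and not in the arterial and venous one (331 against 270 CPM); *Notch3* and *Hes1* lead in pericyte-like cells.

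Left out of the pericyte-like class were unnamed sub-clusters led by *Rgs5*, *Acta2* and *Tagln* (6 and 32 cells) and by *Tagln*, *Acta2* and *Myl9* (1 and 16 cells). Their cancer-cell RNA shares were 87.7% and 56.5%, and the part of this selection in the ratios was not tested. In pericyte-like cells 3 members had at least 50 UMIs, and all had ratios below 0. *Notch3* was at -0.32 (-0.68 to 0.03), *Hes1* at -0.38 (-0.74 to -0.03) and *Notch1* at -0.03 (-0.78 to 0.70). The 5 cells highest in *Hes1* held 45.6% and 50.5% of its UMIs. For *Notch3* these shares were 32.4% and 48.6%, and for *Notch1* 48.7% and 62.1%. *Jag1*, with 33 and 16 UMIs, was at -0.65 (-1.61 to 0.25). The median of the 3 was -0.32, against -0.06 over 2552 genes, and the 8 pericyte markers were at -0.14. In the same cells 5 smooth-muscle markers stood at 4847 and 3630 CPM and 8 macrophage markers at 222 and 717 CPM, and their part in the *Notch3* and *Hes1* ratios was not tested. No member was lower by 1.5-fold or more (7.8% of all genes measured) or higher (5.96%). In the 39 and 32 cells holding less than 25% cancer-cell RNA, *Notch3* was at -0.29 and *Hes1* at -0.31, each with an interval across 0. The *Notch3* ratio was -1.24 with a mitochondrial limit of 20% and -1.15 at Leiden resolution 2.0, settings that change which cells are named. In the main pericyte-like sub-cluster (37 and 24 cells, medians of 11401 and 11185 UMIs), *Notch3* stood at 381 and 311 CPM (-0.29, -0.66 to 0.07), *Hes1* at 381 and 317 CPM (-0.27, -0.63 to 0.09) and *Jag1* at 68.1 and 43.1 CPM (-0.66, -1.68 to 0.29).

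Fibroblast-like cells (178 and 845) carried *Hes1* and *Notch2*. *Hes1* was 84.0 and 52.9 CPM (-0.67, -0.83 to -0.50), *Notch1* 17.1 and 11.2 CPM (-0.61, -0.98 to -0.24) and *Notch2* 26.5 and 57.3 CPM (1.11, 0.87 to 1.36). Of 4 members measured, 2 were lower by 1.5-fold or more, where 12.3% of all genes measured were, and 1 was higher, where 5.32% were. The median of the 4 was -0.25 and that of all 10949 genes -0.09. Without the cells that Scrublet called doublets, 3.93% and 34.0% of this class, the median was 0.27. The 8 fibroblast markers were at 29936 and 15415 CPM, and the part of RNA from other cells in these ratios was not tested. In the 133 and 230 cells under 25% cancer-cell RNA the markers stood at 52023 and 46954 CPM, *Hes1* at 0.02 (-0.19 to 0.23), *Notch1* at -0.10 (-0.64 to 0.43) and *Notch2* at 0.44 (with an interval from just above 0 to 0.88).

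Cancer-like cells (5229 and 8660) carried *Notch2* at a level that differed by more than 1.5-fold between the libraries. It had 6706 and 13020 UMIs there. The level was 21.4 CPM (20.9 to 21.9) in the sGC Ctr library and 49.7 CPM (48.9 to 50.6) in the sGC ΔPC library, and the log2 ratio was 1.22 (1.18 to 1.26). The cells of the libraries lie in different clusters: clusters 0 and 4 held 2548 and 1207 sGC Ctr cells and 1419 and 777 sGC ΔPC cells, while clusters 1, 9 and 12 held 329, 91 and 132 sGC Ctr cells and 2375, 1493 and 1089 sGC ΔPC cells. *Hes1*, on 7167 and 6246 UMIs, was 22.8 and 23.9 CPM (0.06, 0.01 to 0.11), and *Notch1* 7.59 and 8.41 CPM (0.15, 0.06 to 0.23). The remaining members were all under 3 CPM, and *Hey1* had 4 and 7 UMIs in all these cells. All 9 measured members had a ratio above 0 with a median of 0.55, against 0.01 over 14709 genes. In the same cells 8 macrophage markers stood at 238 and 535 CPM, and Scrublet called 3.06% and 29.1% of the class doublets. The part of RNA from other cells in the member ratios was not tested. *Notch2*, *Notch3* and *Dll4* were higher by 1.5-fold or more, where 7.37% of all genes measured were, and none was lower, where 0.707% were. *Notch3* (0.159 and 0.279 CPM on 50 and 73 UMIs) and *Dll4* (0.0988 and 0.164 CPM on 31 and 43 UMIs) stayed under 1 CPM.

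The level of *Notch2* moved with the ribosome-like transcripts named above. When the cancer-like cells of a library were put in order of *Gm42418*, *AY036118* and *Lars2* and cut into 5 bins of equal size, *Notch2* went from 17.03 CPM in the bin with least (1486 CPM of the 3 transcripts) to 28.7 CPM in the bin with most (7051 CPM) in the sGC Ctr library. In the sGC ΔPC library it went from 41.6 CPM (5060 CPM of the 3) to 75.7 CPM (41032 CPM). The median depth was lower along the same bins, from 82469.5 to 37295 UMIs and from 71891.5 to 6140 UMIs. *Hes1* went from 21.2 to 23.4 CPM and from 21.6 to 26.0 CPM. The sGC Ctr bin with 7051 CPM and the sGC ΔPC bin with 5060 CPM of the 3 transcripts differed in *Notch2*, 28.7 (27.0 to 30.3) against 41.6 (40.5 to 42.7) CPM. These 3 transcripts were picked after their values were seen, and their part in the *Notch2* difference was not tested.

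**Figure D5:**
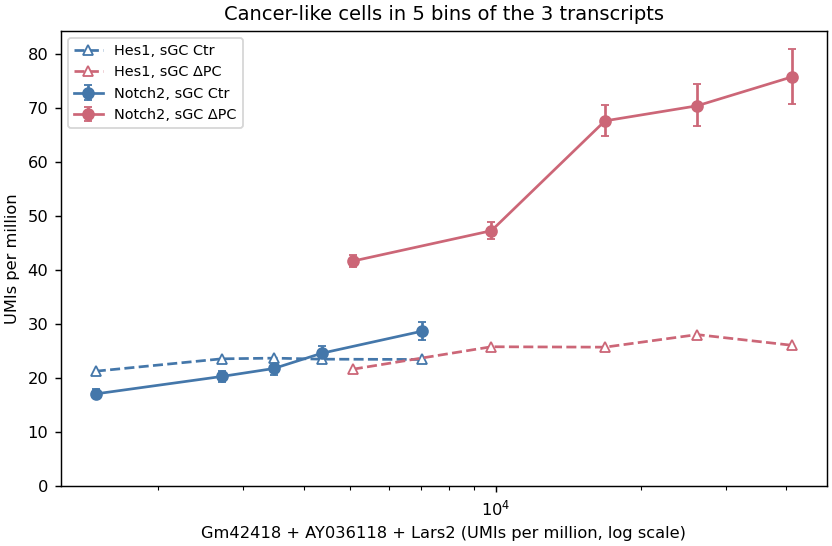
*Notch2* (circles, with exact 95% Poisson intervals) and *Hes1* (open triangles) in cancer-like cells, in CPM, for 5 equal bins of cells ordered by the summed level of *Gm42418*, *AY036118* and *Lars2* (horizontal log axis). *Notch2* climbs along the axis in both libraries, from 17.03 to 28.7 CPM and from 41.6 to 75.7 CPM, and *Hes1* stays between 21.2 and 28.0 CPM.

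Within single cancer-like clusters the *Notch2* ratio ran from 0.51 in cluster 0 to 2.59 (2.33 to 2.87) in cluster 1, and differences between clusters were not tested. Clusters 0 and 4 had close depths in both libraries (medians of 48665.5 and 53092 UMIs, and of 72446 and 74221). There *Notch2* was 24.2 and 34.5 CPM (0.51, 0.43 to 0.59) and 20.8 and 30.3 CPM (0.54, 0.45 to 0.64), and *Notch1* was higher as well, by 0.39 (0.25 to 0.53) and 0.36 (0.21 to 0.51) on the log2 scale. *Hes1* was at -0.05 (-0.14 to 0.03) in cluster 0 and 0.18 (0.07 to 0.28) in cluster 4. Over all 7 cancer-like clusters *Notch2* ranged from 11.6 to 24.2 CPM in the sGC Ctr library and from 30.3 to 74.1 CPM in the sGC ΔPC library, 2 ranges without overlap. The ranges of *Hes1* overlapped, 17.4 to 25.7 and 20.4 to 27.7 CPM. Clusters 5 and 11 had 4 of 5 cancer-cell markers but were led by matrix genes such as *Dcn*, and stayed without a name. Their *Notch2* levels were 30.4 and 37.5 CPM (0.30, 0.18 to 0.43) and 23.3 and 50.2 CPM (1.11, 0.98 to 1.23), the latter at depths that were also close (medians of 53284 and 47763 UMIs), and *Hes1* was 38.7 and 40.1 CPM in the first and 35.1 and 31.1 CPM in the second, above every cancer-like cluster.

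Macrophage-like cells (1795 and 2597) had small ratios above 0 in 5 of 6 measured members. *Jag1* was at 0.49 (0.23 to 0.75), *Notch2* at 0.47 (0.33 to 0.60) and *Hes1* at 0.23 (0.13 to 0.33), while *Notch1* (0.07) and *Jag2* (0.13) had intervals across 0 and *Notch4* was at -0.07. The median was 0.18, against -0.05 over 11505 genes. None of the 6 was lower by 1.5-fold or more (1.94% of all genes measured) or higher (5.3%). The sGC ΔPC library has 1431 shallow cells in cluster 10 of this class, against 76 in the sGC Ctr library. In cluster 2, with 1526 and 1049 cells and medians of 11551 and 12147 UMIs, the values were 0.48 (0.20 to 0.76) for *Jag1*, 0.33 (0.18 to 0.49) for *Notch2* and 0.19 (0.08 to 0.30) for *Hes1*. The 3 ribosome-like transcripts were 16277 and 40135 CPM in macrophage-like cells. MHC II-high macrophage-like cells (536 and 1402), which present antigen, had *Notch2* at 33.4 and 49.6 CPM (0.57, 0.30 to 0.84) and *Hes1* at 62.8 and 67.3 CPM (0.10, -0.11 to 0.30).

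Monocyte-like, granulocyte-like and dendritic-like cells all held *Notch2* and had different levels of *Hes1*. In monocyte-like cells (813 and 1032, medians of 5851 and 5244 UMIs) *Hes1* was lower in the sGC ΔPC library, at 84.6 against 122 CPM (-0.53, -0.70 to -0.36), with *Notch2* at 0.38 (0.14 to 0.62) and *Notch1* at 0.00 (-0.29 to 0.30). In granulocyte-like cells (449 and 714) *Hes1* was 43.8 and 21.9 CPM on 42 and 32 UMIs (-1.003, -1.71 to -0.31), of which 5 cells held 73.8% in the sGC Ctr library, and *Notch2* and *Notch1* had intervals across 0. Dendritic-like cells (177 and 140) had *Hes1* on 3 and 9 UMIs only.

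In the T-cell-like class (145 and 158 cells) *Hes1* was 198 CPM in the sGC Ctr library and 33.6 CPM in the sGC ΔPC library, on 96 and 19 UMIs (-2.56, -3.35 to -1.84). Few cells carried these UMIs: 11 and 9 cells, of which the 5 highest held 84.4% and 78.9%. Those 11 and 9 cells had 0 and 1 UMI of *Cd3e*, of the T-cell receptor complex, while 61 of the 134 and 68 of the 149 cells without *Hes1* had it. *Cd3d* was seen in 2 and 2 of the cells with *Hes1* and in 85 and 76 of those without. The receptor chain gene *Trbc2* was seen in 2 and 2 against 86 and 89 cells. The cells with *Hes1* were also deeper (medians of 4052 and 4468 UMIs against 2600 and 2708). The *Hes1* level of this class rests on these few cells. *Notch1*, by contrast, was spread over 23 and 29 cells and stood at 59.8 and 62.0 CPM (0.05, -0.70 to 0.81). The class also carries 6 natural killer cell markers, at 1417 and 1117 CPM beside 3268 and 3378 CPM for the 6 T-cell markers. Of these, *Klrb1c* was seen in 2 and 1 cells with *Hes1* and in 16 and 15 without. *Gzma* was seen in 1 and 1 against 20 and 16 cells. Which of the 2 kinds of cell carried *Notch1* was not tested.

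The rest of the pathway was counted from lists of machinery, negative regulators, other ligands and other targets. In endothelial-like cells 16 of 21 machinery genes were measured, of which 2 were lower by 1.5-fold or more and none higher, with a median of -0.06; over all genes measured there, 6.07% were lower and 4.76% higher by that much. Those 2 were *Neurl1b*, a ligand ubiquitin ligase (-0.73, -1.44 to -0.05), and *Psen2*, of the gamma-secretase that cuts the receptor (-0.66, -1.26 to -0.08), followed by the receptor glycosyltransferase gene *Pofut1* (-0.58, -1.41 to 0.21). *Rbpj* was at 0.49 (0.12 to 0.87), followed by *Dtx2* (0.40) and the cell-cycle gene *Ccnd1* (0.39). The *Rbpj* level was 60.6 and 85.5 CPM there, against 280 and 285 CPM in cancer-like and 448 and 464 CPM in macrophage-like cells. The part of RNA from other cells in the *Rbpj* ratio was not tested. In endothelial-like cells none of 8 negative regulators and none of 3 other targets passed 1.5-fold. *Nrarp*, a target that feeds back on Notch, stood at 115 and 94.5 CPM (-0.29, -0.60 to 0.02).

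In pericyte-like cells few of these genes reached 50 UMIs. *Dlk1*, a ligand-like protein without the receptor-binding domain of the Delta family, was at 77.6 and 185 CPM (1.25, 0.65 to 1.87). The pericyte-like cells of the libraries are spread differently: besides the main sub-cluster (37 and 24 cells), a shallow one of 3 and 21 cells has *Dlk1* among its leading genes. *Rbpj* was at 88.1 and 138 CPM (0.65, 0.02 to 1.27), and the protease gene *Adam10* had a ratio of 0.01. The part of RNA from other cells in this *Rbpj* ratio was not tested either. *Nrarp* (-0.61), *Dtx3* (-0.51), *Psenen* and the mural target *Heyl* (both -0.47, with 69 and 38 UMIs each) lay below 0 with intervals across 0. *Heyl* was 145 and 105 CPM in pericyte-like cells and had 1 and 0 UMIs in endothelial-like cells. In fibroblast-like cells 1 of 18 machinery genes was lower and none higher by 1.5-fold, against 12.3% and 5.32% of all genes measured. In cancer-like cells none of 21 was lower and 1 higher, against 0.707% and 7.37%. In macrophage-like cells none of 21 passed in either direction, against 1.94% and 5.3%. Of the other lists in fibroblast-like cells, 1 of 9 negative regulators was lower (*Numbl*, -0.81). All 3 other targets measured there passed 1.5-fold: *Hes6* (-0.61) was lower, and *Myc* (1.35) and *Ccnd1* (0.64) were higher. The part of RNA from other cells in these ratios was not tested. Outside the machinery, no gene passed in cancer-like cells, and only *Dner* did in macrophage-like cells (0.76, on 36 and 49 UMIs).

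The genes with patterns most like those of *Dll4*, *Notch3* and *Hes1* were looked for over the 20 class and library units, among 13726 genes, by Pearson's r of log2(CPM + 1); units of a library share its depth, and r is a description. *Dll4* ran most like the endothelial genes *Tie1* (0.98), *Cldn5* (0.98) and *Ushbp1* (0.97), of which the first 2 are markers that named the class. *Notch3* ran most like *Higd1b* (0.98), a naming marker of pericytes, *Gucy1a1* (0.98), the alpha subunit partner of *Gucy1b1*, and *Rgs4* (0.98). *Hes1* had looser likeness (0.86 for *Pitpnc1*, 0.85 for *Rab33b* and 0.85 for *Eral1*). *Hey1* has too few UMIs for this.

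RefSeq promoter windows (GRCm38.p6, 300 bases each, of which 50 follow the start) were at hand for 8 of the 10 members, all but *Hes1* and *Hey1*. The letters TGGGAA of the RBPJ motif were searched on both strands. They occurred in none of the windows of these members, such as those of *Dll4* (chr2:119325534-119325833, plus strand) and *Notch3* (chr17:32166841-32167140, minus strand), and in 25.6% of the 32851 windows of the table. This says only that these 6 letters are not in these windows.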

How the data were processed

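The authors processed the reads of both libraries with Cell Ranger 6.1.1 on mm10 (per the labels; GENCODE annotation in the methods) and deposited UMI counts per gene and barcode, all whole numbers. Barcodes entered the analysis if mitochondrial genes gave less than 10% of UMIs and if log UMIs and log genes lay no more than 3 median absolute deviations (MADs) from the library median. Clusters came from 3000 variable genes without the pathway genes, 20 principal components, mutual nearest neighbor (MNN) correction (20 neighbors) and Leiden at resolution 1.0 (scanpy 1.11.5, leidenalg 0.10.2, numpy, scipy), and were named where at least 3 markers of a list and 0.5 of the list were called; 22.8% and 30.2% of cells stayed unnamed, among them clusters with cancer-cell markers that were led by markers of another class. The cluster with both endothelial and pericyte markers (132 and 307 cells) was clustered again (2000 genes, 15 components). Its sub-clusters in which neither list was called stayed unnamed, and each of them held more sGC ΔPC than sGC Ctr cells.

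UMIs were summed per class and library; levels have exact Poisson intervals, ratios exact conditional ones and shares are of cells. Ratios need 50 UMIs in both libraries together. Depth is 476464534 and 412064152 UMIs in kept cells. With 1 library per genotype no p-value is given. Scrublet at 0.8% per 1000 cells called 4.89% and 33.4% of cells doublets; they were left out only as an alternative. Sums and intervals were tried on class sums drawn from a Poisson distribution. Those draws hold no variation between cells, so they cannot show how the intervals do under it. The members, marker lists and other pathway lists were chosen with earlier results of these data known. Other pathway genes were named where they were among the 3 largest ratios each way in endothelial-like or pericyte-like cells. Alternatives covered cell filters, clustering, gating, doublets, thinning, centring and the UMI minimum. The genes most like *Jag1* are not reported here.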

Additional observations from a re-analysis of the deposited data

Results flagged for a closer look

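With 1 library per genotype no sample can stand apart from its group. A pair of genes had ratios on opposite sides of 0 in different classes, each with an interval that leaves out 0, and the difference between classes was not tested. *Hes1* was at -0.55 in endothelial-like, -0.38 in pericyte-like and -0.67 in fibroblast-like cells, and at 0.063 in cancer-like and 0.23 in macrophage-like cells. *Notch1* was at -0.46 in endothelial-like and -0.61 in fibroblast-like cells and at 0.15 in cancer-like cells. These are the 5 classes compared throughout; *Hes1* intervals also lay below 0 in monocyte-like (-0.53), granulocyte-like (-1.003) and T-cell-like cells (-2.56). In the sGC Ctr library 5 cells held 73.8% and 84.4% of the *Hes1* UMIs of granulocyte-like and T-cell-like cells. In cells under 25% cancer-cell RNA, *Hes1* kept an interval below 0 in endothelial-like (-0.32), monocyte-like (-0.69) and T-cell-like cells (-2.63). Granulocyte-like cells then had 30 and 14 *Hes1* UMIs, under the 50 that a ratio needs. The intervals of *Hes1* in pericyte-like and fibroblast-like cells and of *Notch1* in endothelial-like and fibroblast-like cells reached across 0.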

How the results depend on the processing

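Of 306 member ratios under other settings, 242 stayed within the counting interval of the reported value, 61 lay outside it and 3 turned. A ratio was scored as turned only where the reported value passed 1.5-fold and the sign changed. Sign changes of smaller ratios are not counted there. All 3 were *Hes1* in fibroblast-like cells, reported at -0.67. It was 0.020 in cells under 25% cancer-cell RNA, 0.25 with a per-cell marker gate and 0.054 without the MAD filter. The UMI minimum of 20 cannot change a ratio, and all 29 of its values are among the 242. Centring only subtracts the median of all genes of the class, and its 29 values also stayed within. Among ratios from cells thinned to 2000 UMIs, 4 stayed within and 7 lay outside. The median over the members moved in endothelial-like cells from -0.34 to -0.92 with a mitochondrial limit of 20% and -0.77 without MNN correction, in pericyte-like cells from -0.32 to -1.12 with that limit and -0.77 at Leiden resolution 2.0, and in fibroblast-like cells from -0.25 to 0.27 without Scrublet doublets. The causes were not tested. The other 50 of 55 medians lay between the median of the members' lower limits and the median of their upper limits. This range is not an interval of the median. The 50 include the endothelial-like median of 0.03 given below, whose sign differs from that of -0.34. The class with the highest level was another one in 8 of 194 cases. Centring and the UMI minimum leave these levels unchanged, and their cases are among the 194. Clusters of closest depth, chosen after seeing the data, gave medians of 0.03 in endothelial-like, -0.27 in pericyte-like, 0.43 in cancer-like and 0.22 in macrophage-like cells. Without MNN correction no cells were named pericyte-like, and after thinning no member there reached 50 UMIs, so neither gives a median. No paired analysis was possible because each genotype has 1 library and no test was run. Depth limits *Dll1*, *Hey1* and most pericyte-like values.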
